A study of Mus musculus with 35 samples.

Results

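The comparison described here asks how diabetes changed the mouse retina when both the diabetic and the non-diabetic mice had been treated to deplete microglia and had then been given time to regain them. It covers all 17495 genes that could be tested of the 25655 genes listed, in 10 of the study's 35 samples. The D10 repopulated group held 5 samples from mice with 10 weeks of diabetes, labelled with 2 weeks of DTx and then 2 weeks of DTx recovery. The ND repopulated group held 5 samples from non-diabetic mice with the same 2 weeks of DTx and 2 weeks of recovery. The comparison of diabetes without depletion used the D10 group (10 weeks of diabetes and PBS, 5 samples) and the ND group (non-diabetic, 6 samples, with no PBS on its labels). Retina after 6 and 8 weeks of diabetes (D6 and D8, 5 samples each) and after depletion without recovery (D8 depleted, 4 samples) entered only as side values or in estimating errors. No non-diabetic group was sampled after depletion without recovery, so the loss of microglia there was not measured. All mice were labelled wild type and all tissue as retina, and age and sex are not given in the labels. The labels name the depleting agent as DTx while the series text names PLX-5622, so both repopulated groups share a treatment that is called only depletion here. Whether every sample came from a different animal is not given, so the p-values measure the spread between samples, which may be partly technical.

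Microglia are the resident immune cells of the retina. They depend on signalling through the receptor Csf1r, survey synapses and vessels in health, and are replaced by new cells within weeks after they have been removed. In the diabetic retina Müller glia, astrocytes, vessel cells and microglia are known to make chemokines, complement and acute-phase proteins, and neurons and vessels are damaged over time. In bulk tissue, fewer cells of a type and less RNA per cell cannot be told apart.

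The deposited values are comparisons of groups, with no value per sample, so the spread within a group is known only through each p-value and the depth of each library is unknown. The authors compared each repopulated group with the same ND group. Subtracting the log2 fold change of ND repopulated over ND from that of D10 repopulated over ND cancels the ND group and leaves log2 of D10 repopulated over ND repopulated, called the diabetes effect below. Its standard error (SE) came from the deposited p-values after the share due to the ND samples was taken off, and each gene was tested with a normal test with Benjamini-Hochberg adjustment. Genes with an adjusted p under 0.05 were called. A second, wider error that leaves the ND share in (added variances) is given beside most counts of list members that it changes. Group levels are the larger group means in the authors' deposited tables, in a unit that is not stated. For the lower group of a pair the tables often give only an upper limit. The retinal origin of the tissue showed in the rod arrestin gene Sag, which averaged 1993 in D10 repopulated retinas and at most 1632 in ND repopulated retinas in the authors' deposited tables and was not called, with a diabetes effect of 0.27 (SE 0.16, adjusted p = 0.338). The numbers in the sample titles form one run for both repopulated groups, ND, D6 and D8 depleted and an earlier run for D10 and D8. The labels do not say what the numbers stand for.

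The diabetes effect was called for 1861 genes. Of the genes tested 1189 were higher in D10 repopulated retinas (6.80%) and 672 were lower (3.84%). With added variances 391 were higher (2.23%) and 101 lower (0.577%), and all 492 of these were among the 1861. The main error is the more lenient one: where the same derivation was set against a comparison in the authors' deposited tables, D10 repopulated and D10, it called 141 genes, against 75 in the authors' deposited table, with 52 in both. Rises were larger than falls. The median was 1.24 among genes called higher and -0.56 among genes called lower, against 0.02 over all genes tested. At least 2-fold changes were reached by 679 genes that rose and by 161 that fell, and at least 8-fold changes by 210 and 26.

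Some genes with large changes that also passed with added variances belong to no list. Il19, a cytokine of the Il10 family, averaged 7.96 in D10 repopulated retinas and at most 0.0338 in ND repopulated retinas in the authors' deposited tables, an effect of 9.08 (SE 1.24, adjusted p = 4.41e-11). Among the 15 largest falls that passed with added variances in the upper 60 percent of level were Tm6sf2, a lipid-handling membrane protein, at -1.78 (SE 0.33), the replication-dependent histone gene H3c14 at -1.56 (SE 0.30) and the matrix gene Sned1 at -1.53 (SE 0.26). The muscle-type genes Csrp3 and Mypn, which encode proteins of the sarcomere, fell by 1.37 (SE 0.29) and 1.33 (SE 0.19). Adam8, a membrane protease of leukocytes, fell by 1.20 (SE 0.24).

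**Figure D1:**
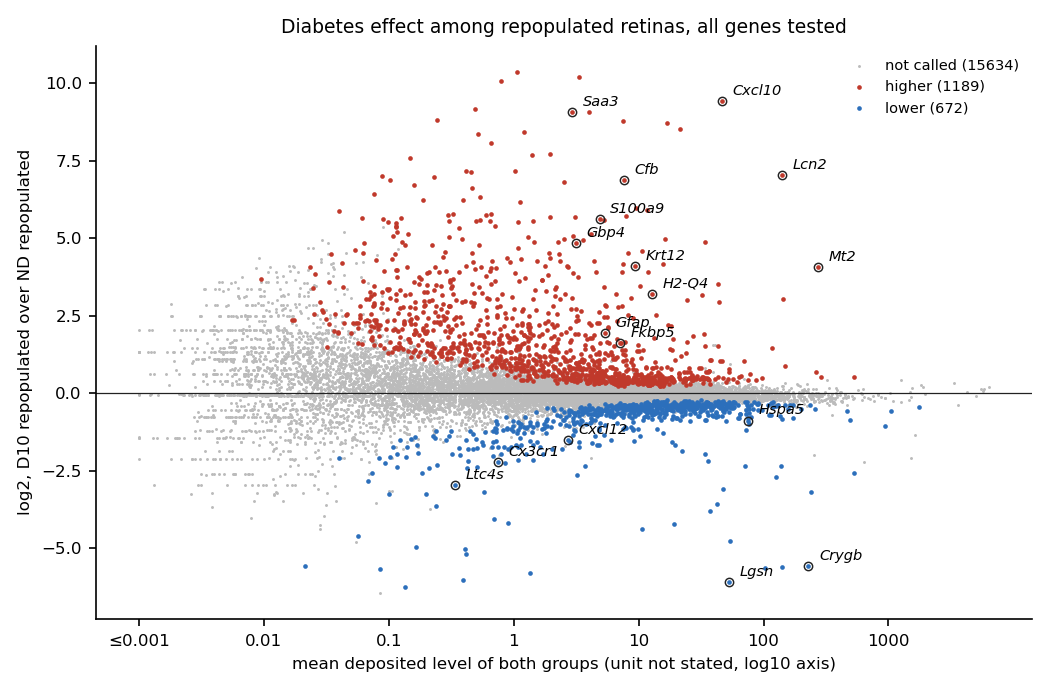
Diabetes effect (log2 of D10 repopulated over ND repopulated, vertical axis) against the mean deposited level of both groups (log10 axis, unit not stated) for the 17495 genes tested; red points were called higher (1189), blue points lower (672) and grey points not called. Chemokine, acute-phase and metallothionein genes lie at the top, lens genes such as Lgsn and Crygb at the bottom, and most other falls are shallow.

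Chemokine and cytokine genes rose steeply. Of 30 genes of this list 20 rose and 1 fell (16 and 1 with added variances), with a median diabetes effect of 3.81. Ccl2, which draws monocytes through the receptor Ccr2, had a mean level of 42.7 in D10 repopulated retinas and of at most 0.114 in ND repopulated retinas in the authors' deposited tables. The diabetes effect of Ccl2 was 8.53 (SE 0.73, adjusted p = 2.45e-28). Cxcl10, an interferon-induced chemokine for T cells, averaged 92.3 in D10 repopulated retinas and at most 0.129 in ND repopulated retinas in the authors' deposited tables. Its effect was 9.42 (SE 0.82, adjusted p = 1.53e-27). The neutrophil chemokine Cxcl1 rose by 8.73 (SE 0.81) and the granulocyte growth factor Csf3 by 8.79 (SE 0.94). Csf1, the growth factor that maintains microglia through Csf1r, rose by 2.48 (SE 0.28, adjusted p = 2.92e-16) and averaged 5.37 in D10 repopulated retinas against at most 1.05 in ND repopulated retinas in the authors' deposited tables. These genes were near the bottom of the scale in non-diabetic tissue, so their log2 values depend on how the authors' model treats low levels. The same held for classical inflammatory cytokines. Il6 had an effect of 10.38 (SE 2.01) and Il1b of 4.78 (SE 0.79). Tnf had 3.41 (SE 0.68), which did not pass with added variances (adjusted p = 0.476). In the opposite direction Cxcl12, a chemokine of resting stroma and endothelium, fell by 1.51 (SE 0.21, adjusted p = 1.09e-10).

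Innate receptors and feedback genes of the NF-kB pathway rose as well. In the list of NF-kB feedback genes and innate receptors 23 of 27 rose and 1 fell (15 and 0 with added variances, median 1.75). Nfkbia, the inhibitor that holds NF-kB in the cytoplasm and is itself induced by it, averaged 53.1 in D10 repopulated retinas and at most 13.9 in ND repopulated retinas in the authors' deposited tables. It rose by 1.92 (SE 0.20, adjusted p = 5.25e-19). Tlr2, a receptor for bacterial lipoproteins, rose by 4.99 (SE 0.59), Tnfaip2 by 5.68 (SE 0.65) and the NF-kB subunit gene Relb by 2.38 (SE 0.35). The gene that fell, Tnfaip3, a ubiquitin-editing inhibitor of the pathway, changed by -0.37 (SE 0.13, adjusted p = 0.0476), and this call did not hold with added variances (adjusted p = 0.507). Adhesion molecules on inflamed endothelium followed. Icam1, which binds leukocyte integrins, averaged 22.6 in D10 repopulated retinas and at most 0.540 in ND repopulated retinas in the authors' deposited tables, an effect of 5.90 (SE 0.51, adjusted p = 2.44e-27). Vcam1 rose by 2.46 (SE 0.34) and the selectin gene Sele by 5.04 (SE 0.78), and 5 of 12 adhesion genes rose in all (4 with added variances). Selplg, the selectin ligand that microglia also carry, fell by 1.74 (SE 0.39).

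Reactive glia and acute-phase genes rose with them. In the gliosis list 20 of 28 genes rose and 1 fell (median 2.11), and in the acute-phase list 13 of 15 rose (median 3.17). With added variances 16 and 7 of these rises held. Lcn2, an iron-binding acute-phase protein that belongs to both lists, had the smallest p of all list members. It averaged 279 in D10 repopulated retinas and at most 2.43 in ND repopulated retinas in the authors' deposited tables, with a diabetes effect of 7.03 (SE 0.50, adjusted p = 1.13e-40). The protease inhibitor Serpina3n rose by 4.89 (SE 0.42). Part of that distance lay in the non-diabetic arm, since Serpina3n stood at 3.86 in D10 repopulated over ND and at -1.04 in ND repopulated over ND in the authors' deposited tables. Gfap, whose filament protein marks astrocytes and reactive Müller glia, averaged 8.55 in D10 repopulated retinas and at most 2.19 in ND repopulated retinas in the authors' deposited tables. Gfap rose by 1.95 (SE 0.25, adjusted p = 1.05e-12). Socs3 and Cebpd, which respond to cytokines of the Il6 family, rose by 2.80 (SE 0.36) and 3.93 (SE 0.40). The serum amyloid gene Saa3 rose by 9.06 (SE 0.87), and the cholesterol hydroxylase Ch25h by 4.95 (SE 0.43). The only fall in the gliosis list was Hspb1, a small heat shock gene that lens also expresses, described with the lens genes.

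**Figure D2:**
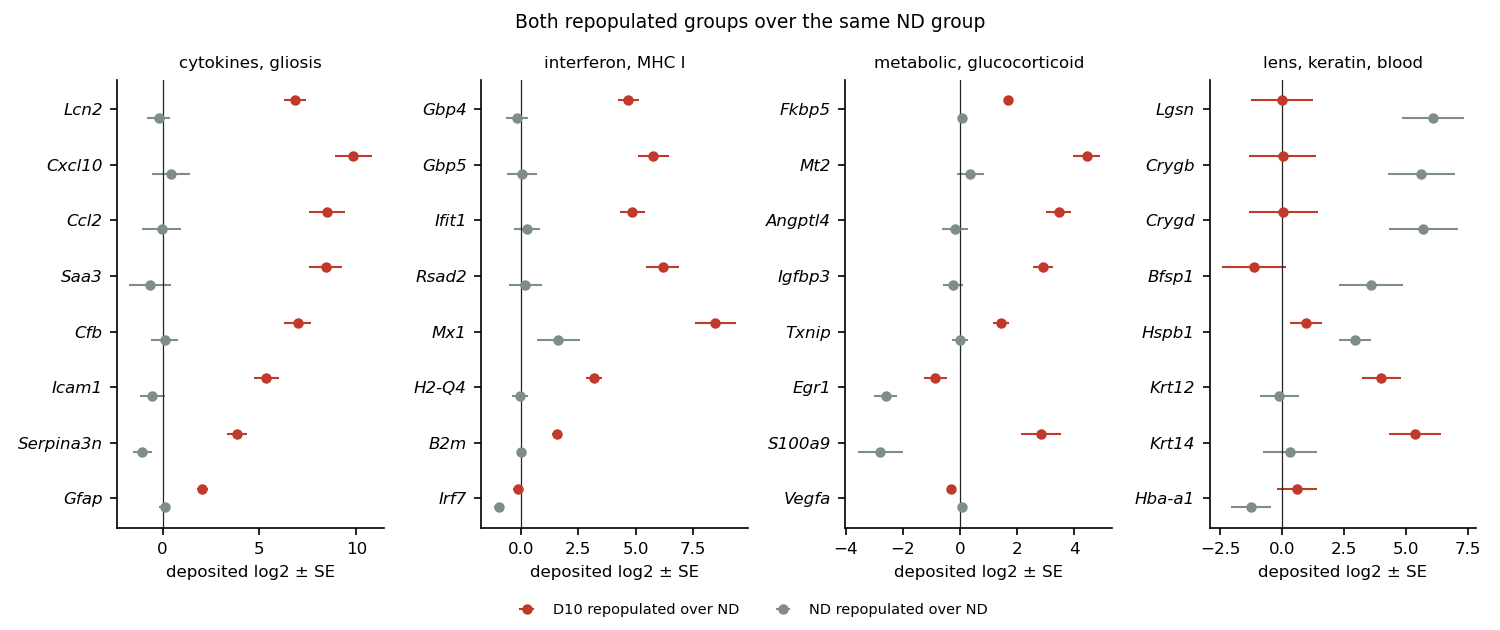
Deposited log2 fold changes with implied SE (horizontal bars) of D10 repopulated over ND (red, upper point) and of ND repopulated over ND (grey, lower point) for 32 genes in 4 panels. For Lcn2, Cxcl10, Gbp4 and Fkbp5 the grey point lies near 0 and the red point far to the right, whereas for the lens genes Lgsn, Crygb and Crygd the red point lies near 0 and the grey one is high.

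Interferon-stimulated genes rose as a block. All 14 interferon-inducible GTPase genes rose, with effects between 2.25 and 5.72 and a median of 4.12, and all 14 also passed with added variances. In the antiviral list 28 of 33 genes rose, 25 of them with added variances, and none fell (median 2.15). Gbp5, a guanylate-binding protein that promotes inflammasome assembly, averaged 15.6 in D10 repopulated retinas and at most 0.289 in ND repopulated retinas in the authors' deposited tables. Gbp5 rose by 5.72 (SE 0.55, adjusted p = 2.22e-22) and Gbp4 by 4.85 (SE 0.42, adjusted p = 2.89e-28). Tgtp1 rose by 5.68 and its near-identical copy Tgtp2 by 3.33, and reads may have been split between them. Among antiviral effectors Ifit1, which binds foreign RNA, averaged 20.6 in D10 repopulated retinas and at most 0.839 in ND repopulated retinas in the authors' deposited tables, an effect of 4.59 (SE 0.52, adjusted p = 5.75e-16). Rsad2 (viperin) rose by 5.97 (SE 0.69) and Mx1 by 6.83 (SE 0.74). Irf7, the regulator of type I interferon genes, was called at 0.86 (SE 0.15), yet it stood at -0.10 in D10 repopulated over ND and at -0.96 in ND repopulated over ND in the authors' deposited tables. Its call was lost with added variances (adjusted p = 0.117).

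Promoters of many of these genes held a match to the interferon-stimulated response element, the sequence to which interferon-activated factors are known to bind. Its core was searched as GAAANNGAAA on both strands in RefSeq promoters of GRCm38.p6, from 250 bases before to 50 after each gene's start. Of 32851 promoters 3.44% held a match, counted per promoter. Of the GTPase genes 10 of 14 had a promoter there and 9 of these 10 had a match in at least 1 promoter (Gbp2, Gbp3, Gbp5, Gbp7, Igtp, Irgm1, Irgm2, Tgtp1 and Tgtp2). In the antiviral list 13 of 23 genes found had a match, in the MHC class I list 5 of 17, and in the chaperone list 0 of 23. Over all genes with a promoter the share was 3.99%. The promoters of the 2 antiviral genes with a match and the smallest p, and of Gbp5 as the GTPase example, are shown as the 200 bases before the start, 5′ to 3′ on the gene's strand, with the matches in capitals. A match is a description of the letters and no measure of binding.
Ifit1, chr19:34640689-34640888, plus strand: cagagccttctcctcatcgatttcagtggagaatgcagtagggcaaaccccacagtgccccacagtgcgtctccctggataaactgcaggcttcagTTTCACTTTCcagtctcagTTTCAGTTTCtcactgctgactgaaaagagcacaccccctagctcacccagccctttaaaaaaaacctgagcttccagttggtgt
Rsad2, chr12:26456453-26456652, minus strand: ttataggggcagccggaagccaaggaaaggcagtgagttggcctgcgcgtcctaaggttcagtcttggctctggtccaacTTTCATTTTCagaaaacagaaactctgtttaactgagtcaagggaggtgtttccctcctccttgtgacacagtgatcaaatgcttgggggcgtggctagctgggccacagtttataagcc
Gbp5, chr3:142496734-142496933, plus strand: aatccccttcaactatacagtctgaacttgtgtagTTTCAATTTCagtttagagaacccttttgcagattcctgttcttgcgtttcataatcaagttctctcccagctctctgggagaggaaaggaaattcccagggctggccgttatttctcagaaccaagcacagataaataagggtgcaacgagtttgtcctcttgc
All matches shown lie on the strand opposite to the gene, so they read TTTCNNTTTC on the strand shown. Ifit1 holds 2 matches and the other two genes 1 each. The first match begins 104 bases before the start in Ifit1, 120 in Rsad2 and 165 in Gbp5.

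Antigen presentation genes split by class. Of 20 MHC class I genes 16 rose, 12 of them with added variances, and none fell (median 1.33), whereas of 11 class II genes none rose and 1 fell (median -0.01). H2-Q4, a class Ib molecule, rose by 3.21 (SE 0.29, adjusted p = 6.45e-25). B2m, the light chain shared by class I molecules, averaged 65.0 in D10 repopulated retinas and at most 22.1 in ND repopulated retinas in the authors' deposited tables. B2m rose by 1.54 (SE 0.17) and H2-K1, a classical class I gene, also by 1.54 (SE 0.17). Tap1, which carries peptides into the endoplasmic reticulum, rose by 2.33 (SE 0.31) and Psmb8, a subunit of the immunoproteasome, by 1.88 (SE 0.28). The H2-Q genes are close copies of each other, so reads may be divided among them. The class II gene that fell was Ctss, the lysosomal protease that trims the invariant chain, at -0.70 (SE 0.22, adjusted p = 0.0171), a call lost with added variances (adjusted p = 0.0742).

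The complement list of 20 held 8 rises, 6 of them with added variances, and 1 fall (median 0.46). The genes that rose were Cfb, C3, C4b, C2, the early proteases C1ra and C1s1, the inhibitor Serping1 and the receptor C5ar1. Cfb, the alternative pathway protease, averaged 15.2 in D10 repopulated retinas and at most 0.129 in ND repopulated retinas in the authors' deposited tables, an effect of 6.87 (SE 0.57, adjusted p = 5.23e-30). C3, the central component, rose by 4.28 (SE 0.53), C4b by 1.78 (SE 0.25) and C1ra by 3.37 (SE 0.37). The 3 chains of C1q, made by microglia, were not called. C1qa stood at -0.36 (SE 0.25, adjusted p = 0.443), C1qb at -0.26 (SE 0.26) and C1qc at -0.36 (SE 0.27).

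Homeostatic microglia genes were lower in D10 repopulated retinas. Of 28 genes 12 fell, 9 of them also with added variances, and 1 rose, with a median of -0.49. Cx3cr1, the fractalkine receptor that marks microglia, stood at -2.06 in D10 repopulated over ND and at 0.16 in ND repopulated over ND in the authors' deposited tables. Its mean level was at most 0.713 in D10 repopulated retinas and 0.793 in ND repopulated retinas in the authors' deposited tables. The limit for D10 repopulated retinas comes from the ND mean and is far above what the fold change gives. Cx3cr1 fell by 2.22 (SE 0.33, adjusted p = 2.36e-09). Falls of similar size were found for Siglech, P2ry13 and Trem2, at -2.41 (SE 0.50), -2.32 (SE 0.57) and -1.81 (SE 0.44). Tmem119, which separates microglia from most other macrophages, fell by 1.73 (SE 0.44, adjusted p = 0.00180) and the purinergic receptor P2ry12 by 1.78 (SE 0.46, adjusted p = 0.00213). Csf1r, the receptor on which microglial survival depends, fell by 1.08 (SE 0.31, adjusted p = 0.00681), while its ligand Csf1 rose. The gene that rose was Mertk, a phagocytic receptor that pigment epithelium and macrophages also use, at 0.95 (SE 0.20). Aif1 and Tyrobp, pan-myeloid markers, were not called at -0.38 (SE 0.46) and -0.48 (SE 0.37), and Itgam was not called at 0.95 (SE 0.36, adjusted p = 0.0710). Over the list the median was -0.56 in D10 repopulated over ND and 0.12 in ND repopulated over ND in the authors' deposited tables.

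Disease-associated microglia genes moved in both directions, with 7 of 26 higher and 2 lower (5 and 1 with added variances, median 0.23). The genes that rose included Lyz2, a lysozyme of myeloid cells, at 1.55 (SE 0.30), Axl, a phagocytic receptor, at 0.80 (SE 0.16), and Gpnmb at 1.20 (SE 0.23), the last not with added variances (adjusted p = 0.113). Ch25h, B2m and Csf1, counted here as well, are also made by other cells. Apoe was not called at -0.24 (SE 0.16), nor was Itgax at 0.16 (SE 0.64). Fabp5 fell by 2.34 (SE 0.29), not with added variances (adjusted p = 0.180), and stood at -0.53 in D10 repopulated over ND and at 1.81 in ND repopulated over ND in the authors' deposited tables. It averaged 109 in ND repopulated retinas and stood at 2.12 in D6, -0.87 in D8 and 0.34 in D10 over ND there. The lens gene Crygb had the same order of groups, with 6.39, -0.59 and 3.66 at these times. The cell source of Fabp5 was not tested. Among 16 genes of border and infiltrating macrophages 4 were higher and 1 lower (2 and 0 with added variances, median 0.73). The monocyte gene Ly6c2 rose by 2.80 (SE 0.91, adjusted p = 0.0247) at a mean level of 0.229 in D10 repopulated retinas in the authors' deposited tables. This call did not hold with added variances (adjusted p = 0.388). Mrc1, a marker of border macrophages, was not called at 0.43 (SE 0.59).

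Markers of other leukocytes were higher for 5 of 16 genes, 4 of them also with added variances, and 4 of the 5 are neutrophil genes. S100a9, a calcium-binding protein of neutrophils, averaged 8.56 in D10 repopulated retinas and at most 1.19 in ND repopulated retinas in the authors' deposited tables. Its effect was 5.63 (SE 0.63, adjusted p = 1.37e-16), made up of 2.83 in D10 repopulated over ND and -2.80 in ND repopulated over ND in the authors' deposited tables. S100a8, its partner, rose by 5.14 (SE 0.60), and Ngp, a granule protein, by 8.37 (SE 1.94). Ngp stood at 5.74 in D10 repopulated over ND and at -2.62 (SE 2.08) in ND repopulated over ND in the authors' deposited tables. Ly6g and Mpo, further neutrophil genes, were not called at 3.38 (SE 1.99) and 3.92 (SE 1.93). The T cell gene Cd8a rose by 2.33 (SE 0.50), while Ptprc, the pan-leukocyte gene, was not called at 0.002 (SE 0.42). Summed over the list, the levels came to at most 18.2 in D10 repopulated retinas and at most 3.35 in ND repopulated retinas in the authors' deposited tables. The part of leukocyte RNA in the chemokine and acute-phase rises was not tested.

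Glucocorticoid response genes were higher for 12 of 20 members, 10 of them with added variances, and none fell (median 1.02). Fkbp5, a feedback chaperone of the glucocorticoid receptor, averaged 10.8 in D10 repopulated retinas and at most 3.48 in ND repopulated retinas in the authors' deposited tables. It rose by 1.62 (SE 0.13, adjusted p = 1.32e-30). The metallothionein gene Mt2, which binds zinc and copper, averaged 519 in D10 repopulated retinas and at most 30.5 in ND repopulated retinas in the authors' deposited tables, an effect of 4.07 (SE 0.41). Hif3a rose by 2.20 (SE 0.22), Arrdc2 by 1.41 (SE 0.15) and the cell cycle inhibitor Cdkn1a by 2.54 (SE 0.33). Lcn2, named above, is on this list too.

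In lists of genes that follow glucose and fatty acids a minority of members was called. Over all genes tested 6.80% were higher and 3.84% lower. Txnip, the thioredoxin inhibitor that is induced by glucose, averaged 6.25 in D10 repopulated retinas and at most 2.30 in ND repopulated retinas in the authors' deposited tables. Txnip rose by 1.44 (SE 0.17, adjusted p = 6.32e-15), and 4 of 18 genes of the glucose list rose in all, 2 of them with added variances (Txnip and Igfbp3). The others were Igfbp3, a carrier of insulin-like growth factors, at 3.14 (SE 0.30), and the arrestin-domain genes Arrdc3 at 0.67 (SE 0.14) and Arrdc4 at 0.68 (SE 0.21). Among 23 PPAR and ketone genes 5 rose (2 with added variances), led by Angptl4, an inhibitor of lipoprotein lipase, at 3.64 (SE 0.39) and the lipid droplet gene Plin4 at 2.51 (SE 0.31). In the cholesterol and fatty acid list 8 of 26 genes fell and 1 rose (median -0.24). The falls were small and lay mostly in the sterol branch, with Cyp51 at -0.54 (SE 0.12), Idi1 at -0.52 (SE 0.14) and Msmo1 at -0.48 (SE 0.13). With added variances 2 of the 8 remained. Srebf1, a regulator of lipid synthesis, rose by 0.45 (SE 0.12), a call lost with added variances (adjusted p = 0.383). The NRF2 list had 3 rises among 19 (1 with added variances), of which Slc7a11, the cystine importer, was the largest at 3.22 (SE 0.45). The glycolysis and HIF list had 1 rise and 1 fall among 25, neither with added variances, a share near the background of all genes.

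Chaperone and unfolded protein response genes fell together. Of 26 genes 19 fell, 9 of them with added variances, and 1 rose, with a median of -0.69. Hspa5 (BiP), the main chaperone of the endoplasmic reticulum, stood at -0.64 in D10 repopulated over ND and at 0.25 in ND repopulated over ND in the authors' deposited tables. Hspa5 fell by 0.88 (SE 0.16, adjusted p = 8.08e-07). Its partners in the same compartment fell too. Sdf2l1, which works with BiP, changed by -1.19 (SE 0.23), the disulfide isomerase Pdia6 by -0.71 (SE 0.13), and the secreted factors Creld2 and Manf by -0.78 (SE 0.15) and -0.72 (SE 0.14). Calr, a lectin chaperone, fell by 0.81 (SE 0.18), and Xbp1, the transcription factor of this response, by 0.74 (SE 0.13, adjusted p = 9.92e-07). Cytosolic heat shock genes fell in parallel, with Hspa8 at -0.87 (SE 0.18), Hsph1 at -0.83 (SE 0.15) and Hsp90aa1 at -0.58 (SE 0.15). Hspa1a and Hspa1b, near-identical copies, fell by 0.76 (SE 0.14) and 0.85 (SE 0.18). Atf3, a stress-induced factor, was the gene that rose, by 0.80 (SE 0.19), a call lost with added variances (adjusted p = 0.133), and Atf4 and Herpud1 were not called at -0.007 (SE 0.13) and 0.08 (SE 0.11).

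The endoplasmic reticulum stress element, the site for factors of the unfolded protein response, was searched as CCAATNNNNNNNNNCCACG on both strands in the same RefSeq promoters. Of all promoters 0.119% held a match, and of all genes with a promoter 0.137%. Of 23 chaperone list genes with a promoter, 5 held one (Calr, Creld2, Hsp90b1, Hspa5 and Pdia6). All of these fell, as did 19 of the 26 list genes tested, so a link between match and fall cannot be read from this. In the interferon and MHC class I lists no gene had one. A heat shock element, searched as GAANNTTCNNGAA, was found in 3 of the 23 genes (Hspd1, Hspe1 and Hsph1) and in 0.662% of all genes with a promoter. The motifs share no letters beyond short runs, and overlaps between their matches were not looked for. The promoters of the 3 genes with a stress element match and the smallest p follow, as 200 bases before the start with the match in capitals.
Hspa5, chr2:34771890-34772089, plus strand: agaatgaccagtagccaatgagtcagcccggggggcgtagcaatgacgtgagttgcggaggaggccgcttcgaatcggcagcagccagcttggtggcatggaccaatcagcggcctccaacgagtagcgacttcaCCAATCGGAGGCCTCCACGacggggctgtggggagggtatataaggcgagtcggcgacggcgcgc
Pdia6, chr12:17266389-17266588, plus strand: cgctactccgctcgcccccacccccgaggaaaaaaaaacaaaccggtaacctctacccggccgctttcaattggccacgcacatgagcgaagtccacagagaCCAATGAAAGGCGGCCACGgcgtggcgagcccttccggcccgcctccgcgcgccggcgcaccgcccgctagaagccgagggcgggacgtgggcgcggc
Creld2, chr15:88819446-88819645, plus strand: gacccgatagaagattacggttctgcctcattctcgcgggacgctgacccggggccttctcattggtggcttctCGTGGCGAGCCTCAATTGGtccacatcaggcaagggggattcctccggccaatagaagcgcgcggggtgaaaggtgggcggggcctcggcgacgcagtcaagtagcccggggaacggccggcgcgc
The match lies on the gene's strand in Hspa5 and Pdia6 and on the opposite strand in Creld2. It begins 65 bases before the start in Hspa5, 98 in Pdia6 and 126 in Creld2.

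**Figure D3:**
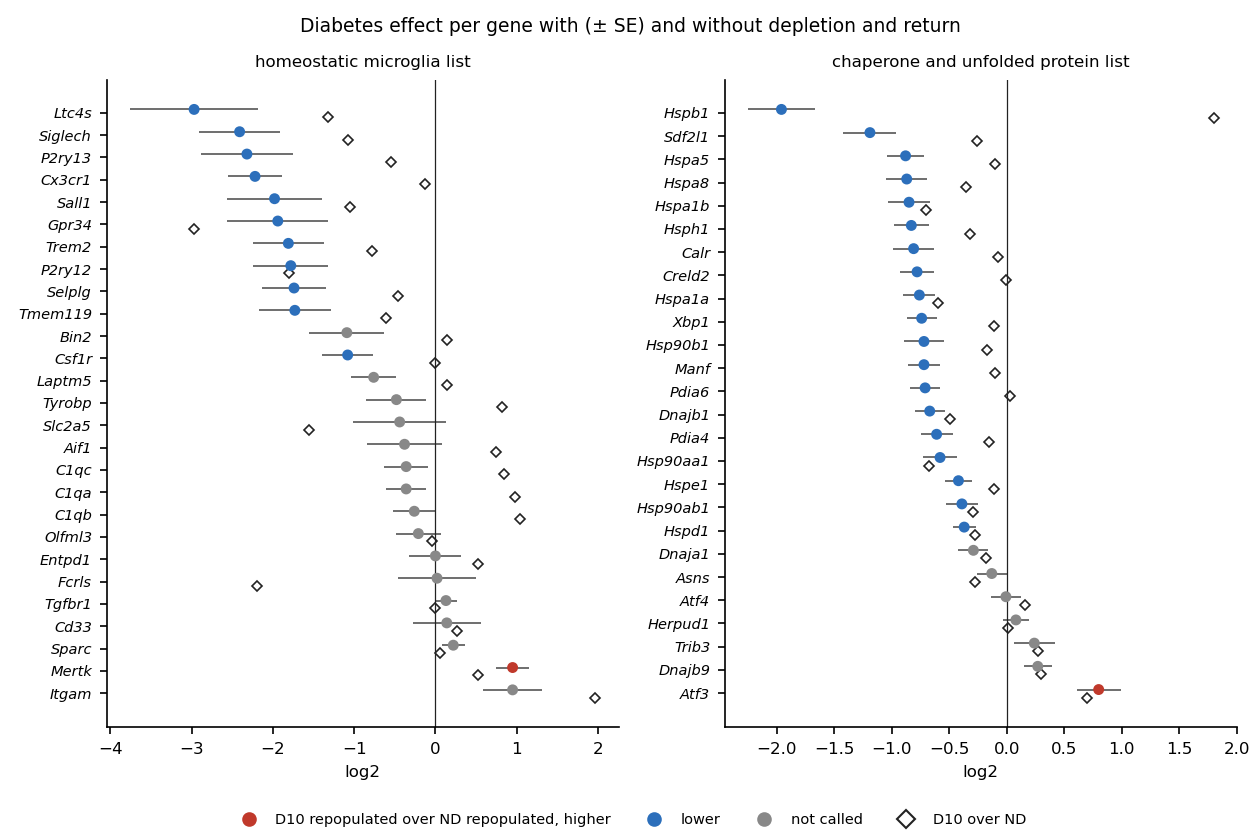
Diabetes effect among repopulated retinas with its SE (filled points; red higher, blue lower, grey not called) and deposited log2 of D10 over ND (open diamonds) for 27 of the 28 homeostatic microglia genes and the 26 chaperone genes. Most blue points lie left of their diamonds, with Cx3cr1 at -2.22 against -0.13 and Hspa5 at -0.88 against -0.10, while P2ry12 and Hspa1b lie close to theirs.

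Vascular genes split between rises and falls. In the endothelial list 4 of 22 genes rose and 6 fell (median -0.11), and in the VEGF and angiopoietin list 3 of 20 rose and 4 fell. With added variances 3 rises and 3 falls held in the first list and 2 rises and 1 fall in the second. Transporters of the blood-retina barrier were among the falls, with Slco1c1, a thyroid hormone carrier, at -1.56 (SE 0.29, adjusted p = 4.42e-06), Slco1a4 at -1.73 (SE 0.40) and the drug efflux pump Abcb1a at -1.04 (SE 0.27). The angiopoietin receptor Tek fell by 1.74 (SE 0.36) and the endothelial transcription factor Sox17 by 2.01 (SE 0.46). Ly6a and Ly6c1, surface antigens that interferons are known to induce, rose by 1.79 (SE 0.20) and 1.24 (SE 0.22), and the junction gene Cdh5 rose by 1.16 (SE 0.24). Pgf, a ligand of the VEGF receptor Flt1, averaged 3.00 in D10 repopulated retinas and at most 0.365 in ND repopulated retinas in the authors' deposited tables, and rose by 3.66 (SE 0.45). Vegfa itself was called at -0.40 (SE 0.14, adjusted p = 0.0485), and this was lost with added variances (adjusted p = 0.387). Pericyte and smooth muscle genes gave 1 rise and 2 falls among 16, none with added variances.

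Of neuronal and Müller glia markers a minority was called, beside 6.80% higher and 3.84% lower over all genes tested. Of 23 rod genes 4 fell and none rose (median -0.08), of 16 cone genes 2 rose and 2 fell, of 18 bipolar genes 2 fell and of 20 ganglion cell genes 1 rose. No rod, bipolar or ganglion cell call held with added variances, and of the cone calls 1 rise did. Rcvrn (recoverin), a calcium sensor of photoreceptors, fell by 1.05 (SE 0.20, adjusted p = 8.57e-06, or 0.216 with added variances), and the rod transducin subunit Gngt1 by 0.57 (SE 0.16). Grm6, the glutamate receptor of ON bipolar cells, fell by 0.69 (SE 0.13, adjusted p = 0.117 with added variances). Among cone genes Opn1mw, the medium-wave pigment, rose by 0.62 (SE 0.12) and Pde6h, a phosphodiesterase inhibitor subunit, fell by 0.49 (SE 0.11). Of 22 Müller glia genes 5 fell and 1 rose, none with added variances, among them the retinoid carrier Rlbp1 at -0.70 (SE 0.21). Of 27 synaptic genes 1 rose and 2 fell, none with added variances. Cell death genes had more calls, with 9 of 20 higher and 1 lower (3 and 0 with added variances, median 0.56). The median of this list was 0.06 when the lowest 40 percent of level was left out. Fas, a death receptor, rose by 3.92 (SE 0.56) and Mlkl, the effector of necroptosis, by 3.92 (SE 0.60).

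Immediate early genes, which follow neuronal activity and handling within minutes, were higher for 6 of 21 members and lower for 3 (2 and 1 with added variances, median 0.06). Several of these calls came from the non-diabetic arm. Egr1 stood at -0.87 in D10 repopulated over ND and at -2.61 in ND repopulated over ND in the authors' deposited tables, and its effect was 1.74 (SE 0.28, adjusted p = 4.92e-08, or 0.0762 with added variances). Junb rose by 1.66 (SE 0.25) and Fos by 1.30 (SE 0.28), whereas the activity gene Npas4 fell by 1.00 (SE 0.20). Among 19 clock genes 3 rose (1 with added variances), with Ciart, a repressor of the clock, at 1.27 (SE 0.15, adjusted p = 3.68e-15) and Per1 at 0.53 (SE 0.14). The time of day of collection is not given in the labels, and its part was not tested.

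Genes of other eye tissues also differed between the groups. All 26 lens genes lay below 0 (median -2.46) and 16 fell, but 1 of the 16 passed with added variances. Lgsn, a lens protein of the glutamine synthetase family, averaged 1.59 in D10 repopulated retinas and 105 in ND repopulated retinas in the authors' deposited tables. Its effect was -6.09 (SE 0.74, adjusted p = 6.46e-14). Crygb, a crystallin, averaged 9.71 in D10 repopulated retinas and 448 in ND repopulated retinas in the authors' deposited tables, and Bfsp1, a lens filament gene, fell by 4.75 (SE 0.77). Hspb1 fell by 1.96 (SE 0.29), with 14.2 in D10 repopulated retinas and 53.4 in ND repopulated retinas in the authors' deposited tables. The larger lens values lay in the non-diabetic arm, with a list median of -1.11 in D10 repopulated over ND and 1.40 in ND repopulated over ND in the authors' deposited tables. Lens values also differed between groups without depletion. Lgsn stood at 6.34 in D6, -0.85 in D8 and 3.95 in D10 over ND in the authors' deposited tables. Summed over the list, lens levels came to at most 4190 in D10 repopulated retinas and at most 8254 in ND repopulated retinas in the authors' deposited tables. The list of cornea, keratin and muscle genes was divided, with 8 of 16 above 0 and 8 below (median 0.11). The 5 that rose (2 with added variances) are epithelial genes, and the muscle genes Myh4 and Tnnt3 had the lowest values, at -3.65 (SE 1.88) and -1.96 (SE 0.79), and were not called. Krt12, the corneal keratin, averaged 17.7 in D10 repopulated retinas and at most 1.07 in ND repopulated retinas in the authors' deposited tables and rose by 4.11 (SE 0.70), and Krt14 rose by 5.04 (SE 0.91). Of 11 blood cell genes 1 rose, Hba-a1 at 1.85 (SE 0.65, adjusted p = 0.0450, or 0.581 with added variances). The part of tissue carried over at dissection in any other result was not tested, and Hspb1 is the only gene shared by the lens list and the chaperone and gliosis lists.

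**Figure D4:**
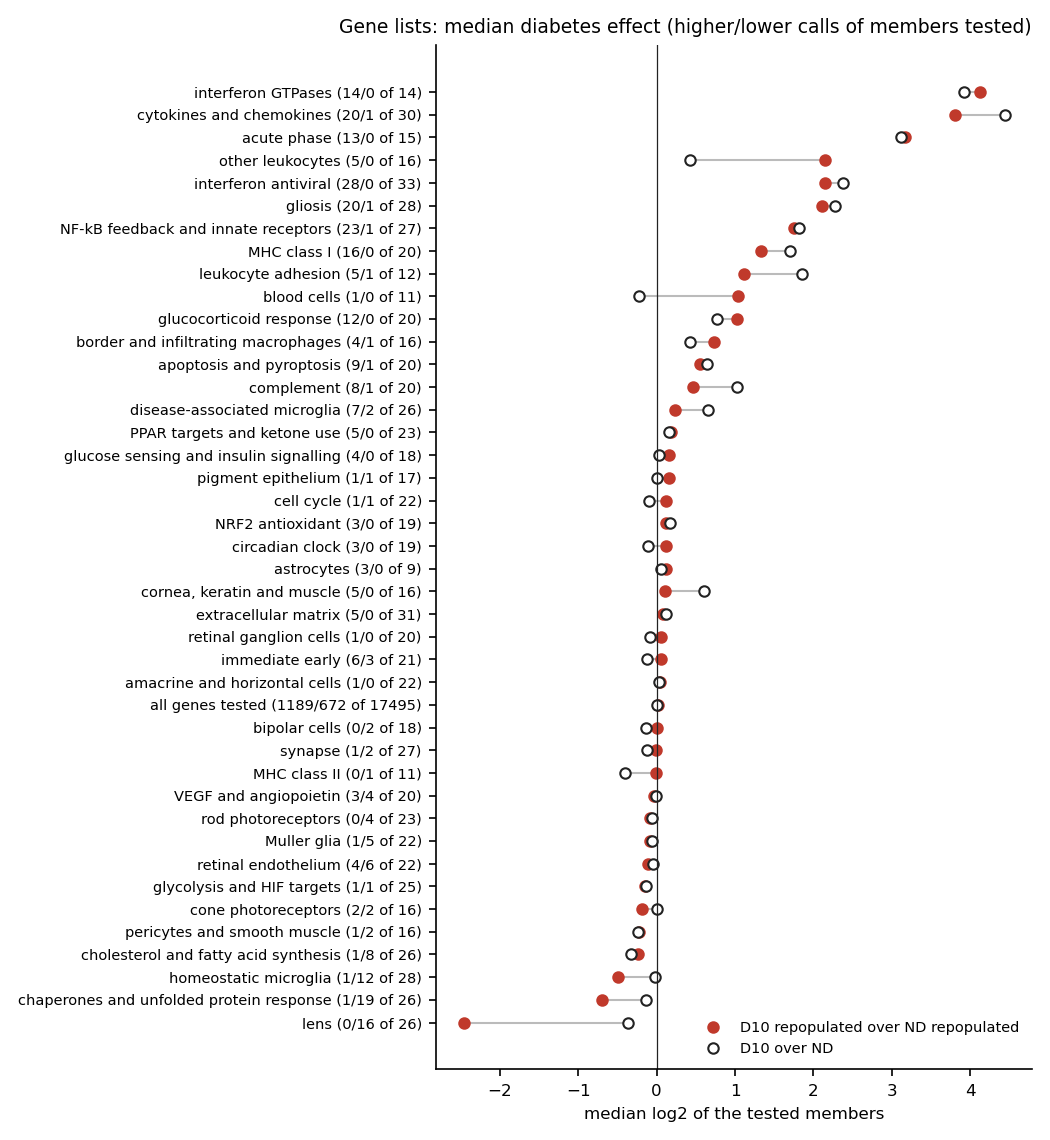
Median log2 of each gene list for D10 repopulated over ND repopulated (filled red) and for D10 over ND (open), with the calls higher and lower among members tested after each name. Interferon GTPases, chemokines and acute-phase genes lie at the top in both comparisons. Lens, chaperone and homeostatic microglia lists lie at the bottom for repopulated retinas, with medians of -2.46, -0.69 and -0.49.

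The diabetes effect among repopulated retinas was set beside that of D10 over ND, which shares no sample with it once ND cancels but differs by the PBS of the D10 labels. In the authors' deposited table of D10 over ND, 968 genes were higher (5.59%) and 244 lower (1.41%) in D10 than in ND. Of the 1189 genes higher among repopulated retinas 633 were called higher there (53.2% of the 1189 and 65.4% of the 968), 1 was called in the opposite direction, and 1148 had the same sign (96.6%). Of the 672 lower genes 111 were called lower there (16.5% of the 672 and 45.5% of the 244), 3 were called in the opposite direction, and 622 had the same sign (92.6%). Some inflammatory, glial and glucocorticoid response genes had effects of like size. Lcn2 stood at 7.03 among repopulated retinas and at 7.08 in D10 over ND, Gfap at 1.95 and 1.96, Fkbp5 at 1.62 and 1.62, and Gbp5 at 5.72 and 5.75, the second of each pair from the authors' deposited table. Others had values further apart. Cxcl2 stood at 10.22 and 6.25, Il19 at 9.08 and 4.48, S100a9 at 5.63 and 2.40 and C3 at 4.28 and 5.73, the second again from the authors' deposited table, and none of these differences was called. Part of the Cxcl2 value lay in the non-diabetic arm, at a level of at most 0.0422 in ND repopulated retinas. Cxcl2 stood at 7.21 in D10 repopulated over ND and at -3.01 (SE 1.46) in ND repopulated over ND in the authors' deposited tables. The difference of Irf7, at 0.86 among repopulated retinas and -0.20 in D10 over ND in the authors' deposited table, was called (difference 1.05, SE 0.26, adjusted p = 0.0328). List medians were 4.12 and 3.92 for the interferon GTPases, 3.81 and 4.44 for cytokines and chemokines and 2.11 and 2.27 for gliosis, the second again from the authors' deposited table. At the earlier times the authors' deposited tables called 2520 genes higher in D6 over ND (14.4% of those tested) and 407 in D8 over ND (2.33%), and 868 and 319 of the 1189 were among them. Lower calls numbered 1664 in D6 over ND (9.51%) and 102 in D8 over ND (0.583%) in the authors' deposited tables, and 378 and 38 of the 672 were among them, while 25 of the 672 were called higher in D6 over ND and 0 in D8 over ND.

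The same genes at the earlier times, without depletion, did not follow a single course. Lcn2 stood at 6.30 in D6, 5.51 in D8 and 7.08 in D10 over ND in the authors' deposited tables. Cx3cr1 stood at -0.78, 0.07 and -0.13 at these times in the authors' deposited tables, and Tmem119 at -0.86, -0.12 and -0.61. The values of both microglial genes in D10 repopulated over ND, -2.06 and -1.62, lay below all 3 in the authors' deposited tables. For the chaperone gene Hspa5 the values were -0.58 in D6, -0.36 in D8 and -0.10 in D10 over ND, and for Sdf2l1 -1.17, -0.49 and -0.26, in the authors' deposited tables. D10 repopulated over ND, at -0.64 for Hspa5 and -1.04 for Sdf2l1 in the authors' deposited tables, was thus nearer to D6 than to D10. These comparisons share the ND samples, and differences between the times were not tested here.

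The difference between both diabetes effects, effect among repopulated retinas minus effect in D10 over ND, was tested for 16827 genes. It was called for 28 genes, 12 of them higher (0.0713%) and 16 lower (0.0951%). Cx3cr1 was one of them. It stood at -2.22 (SE 0.33) among repopulated retinas and at -0.13 in D10 over ND in the authors' deposited table, a difference of -2.12 (SE 0.45, adjusted p = 0.00298). C1qa stood at -0.36 among repopulated retinas and at 0.98 in D10 over ND in the authors' deposited table, a difference of -1.34 (SE 0.30, adjusted p = 0.00894). C1qb differed by -1.31 (SE 0.31) and Ctss by -1.41 (SE 0.26). Over the homeostatic list the median difference was -1.04, and 3 of 28 genes were called, all lower. P2ry12 was equally low in both, at -1.78 among repopulated retinas and -1.80 in D10 over ND in the authors' deposited table, with a difference of 0.01 that was not called. Chaperone genes had a median of -0.69 among repopulated retinas and of -0.13 in D10 over ND in the authors' deposited table. Of their differences, with a median of -0.25, only that of Hspb1 was called, and Hspa5 differed by -0.78 without passing. Of the 28 genes called, 6 are on the lens list, all with negative differences, and 4 are hemoglobin genes, all with positive ones. The others include activity and clock genes such as Egr1, Sik1 and Ciart. A gene that misses this test is not shown to respond alike with and without depletion.

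**Figure D5:**
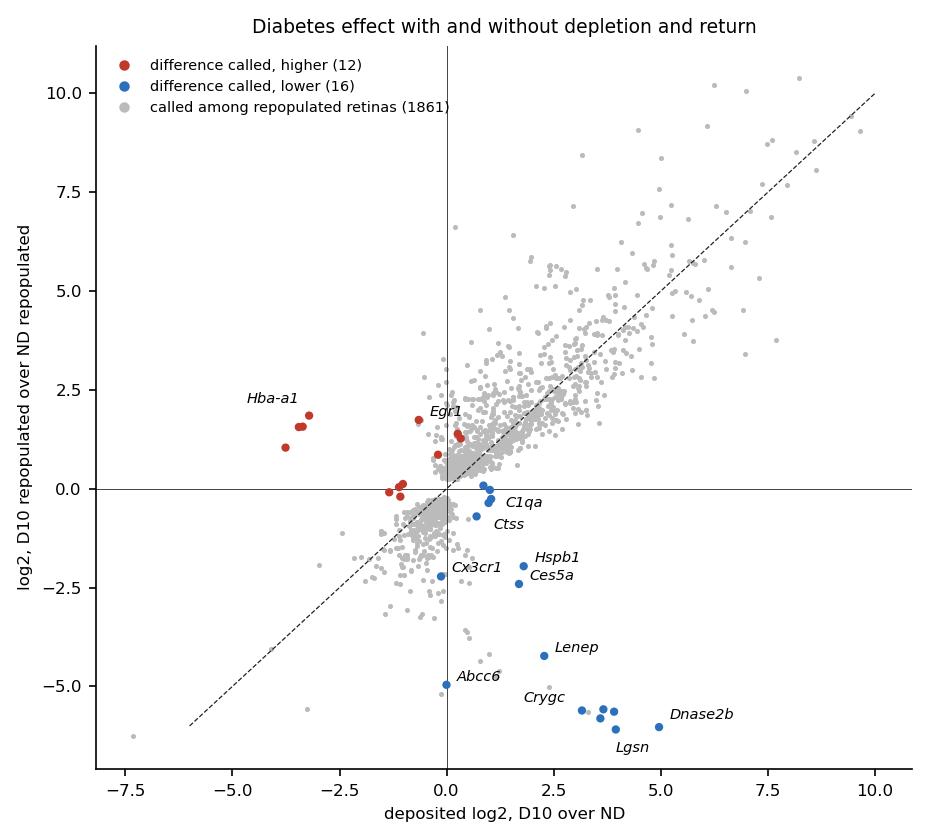
Diabetes effect among repopulated retinas (vertical axis, log2) against deposited log2 of D10 over ND (horizontal axis) for the 1861 genes called among repopulated retinas (grey) and the 28 genes whose effects differed (12 higher in red, 16 lower in blue); the dashed line marks equal effects. Most grey points have the same sign on both axes. Medians on the vertical and horizontal axes were 1.24 and 0.87 for genes called higher and -0.56 and -0.26 for genes called lower. Lens genes such as Lgsn and Dnase2b lie far below the line, Cx3cr1, C1qa and Ctss lie below it, and hemoglobin genes lie above it.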

How the data were processed

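Stranded poly(A) RNA libraries from mouse retina were sequenced as paired reads of 100 bases, per the labels' protocols. Base calls were made with bcl2fastq and the genome was GRCm39, per the submitters' processing notes; no source used here names the aligner, the counting tool, the scaling or the test. Of the 8 tables deposited, each with 25655 genes, 2 gave the contrast and the others its errors and side values. The log2 fold changes, the p-values and the FDR values are as the authors deposited them. Each signal level is, per the file headers, the larger mean of a pair of groups; its unit is unknown. Values per sample were not used here, so depth, its precision and the spread within groups are unknown, and models such as limma, which need values per sample, were not fitted.

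The SE of a deposited log2 was its size over the normal quantile that belongs to its p. The diabetes effect was D10 repopulated over ND minus ND repopulated over ND. Its variance was the sum of both minus 2 times the ND variance, estimated per gene from 2 closed triangles of tables (D10, D10 repopulated, ND and D8, D8 depleted, ND) and limited to at most 0.9 of the smaller variance. Log2 values closed within 0.05 for all 12407 and 12406 genes with a level over 1. A normal test with Benjamini-Hochberg adjustment ran over all genes. Against the 2 comparisons deposited directly, this procedure, with the ND variance taken from the other triangle, called 141 genes where 75 were deposited (52 in both; D10 and D10 repopulated) and 1973 where 1826 were deposited (1524 in both; D8 depleted and D8). It is thus more lenient than the authors' test, and added variances are stricter (2 and 108 calls). The difference between diabetes effects used D10 repopulated over D10 (sign turned) and ND repopulated over ND, which share no sample. The steps were tested on simulated data, where this error also proved lenient.

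Genes were named by a rule: the 15 largest rises and falls in the upper 60 percent of level among genes called also with added variances, predicted names left out, the 4 members with the smallest p of lists with at least 3 calls, the 10 smallest p for the difference, and 8 genes in every case. Other genes in the text are list members picked after their values were seen. The comparison, the 41 lists and the rule were chosen with earlier results of these data known. Promoters were RefSeq sequences of GRCm38.p6. A few single genes counted within their lists are not reported here by name. Alternatives were other thresholds, filters, centring and ND variances. Python 3.11.15, numpy 2.4.6, pandas 2.3.3, scipy 1.17.1, statsmodels 0.14.6 and matplotlib 3.10.9 were used.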

Additional observations from a re-analysis of the deposited data

Results flagged for a closer look

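For 28 genes the diabetes effect among repopulated retinas and that of D10 over ND differed in the test of the difference itself (normal test, Benjamini-Hochberg adjustment). At an unadjusted p under 0.05 the number was 655 of 16827. Each value below is the effect among repopulated retinas minus the effect in D10 over ND, on the log2 scale. The D10 labels carry PBS and an earlier run of numbers in the sample titles, and their part was not tested.

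Lens genes and genes that moved with them had large negative differences. They were -6.52 for Lenep, -10.05 for Lgsn, -11.01 for Dnase2b, -9.58 for Crygd, -9.26 for Crygb, -8.78 for Crygc, -3.77 for Hspb1 and -9.41 for Birc7. Part of the distance lay in D10. Lgsn stood at -0.009 in D10 repopulated, 6.08 in ND repopulated and 3.95 in D10 over ND in the authors' deposited tables. For Crygb these values were 0.03, 5.61 and 3.66. The median of the whole lens list in D10 over ND was -0.36. Abcc6, an efflux transporter, differed by -4.96 and Ces5a, a carboxylesterase, by -4.11. Hemoglobin genes differed the other way, by 5.01 for Hbb-bs, 4.80 for Hbb-bt, 5.06 for Hba-a1 and 4.93 for Hba-a2. These copies share reads. In the authors' deposited tables Hbb-bs stood at 0.40 in D10 repopulated over ND, -1.17 in ND repopulated over ND and -3.45 in D10 over ND.

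Among microglial and immune genes the differences were -2.12 for Cx3cr1, -1.34 for C1qa, -1.31 for C1qb and -1.41 for Ctss, and 1.05 for Irf7. Genes that follow activity or the clock differed upward, with 2.38 for Egr1, 1.24 for Nr4a1, 1.15 for Sik1, 0.88 for Sik2 and 0.93 for Ciart. The dopamine receptor gene Drd4 differed by 1.13 and Etnppl, a phospholyase of astrocytes, by 1.12. The anthrax toxin receptor gene Antxr2 differed by -1.05 and Taf4b, a subunit of a transcription initiation complex, by -0.78. For Sik1, Sik2 and Nr4a1 the effect among repopulated retinas was not called, at 0.04, -0.20 and -0.09, beside -1.11, -1.08 and -1.34 in D10 over ND in the authors' deposited table. Both repopulated groups also lay below ND for these genes. They stood at -1.02, -1.02 and -1.53 in D10 repopulated over ND in the authors' deposited tables, and at -1.06, -0.82 and -1.44 in ND repopulated over ND. Antxr2 stood at 0.72, 0.75 and 1.01 in D10 repopulated, ND repopulated and D10 over ND in the authors' deposited tables, and Taf4b at 0.70, 0.63 and 0.86.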

How the results depend on the processing

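With the wider error of added variances 391 genes were higher and 101 lower, against 1189 and 672, and all 492 were among the 1861. Among the named genes 100 kept their side of the threshold and 47 lost their call under this error. These counts cannot show how well calls hold, because the choice of named genes depended on this error. The largest rises and falls were named only if they also passed with added variances, and genes called under neither error count as kept. At an adjusted p under 0.01 378 genes were lower and 18 differences were called. With an absolute log2 of at least 1 the counts were 679 higher and 161 lower. Leaving out the lowest 40 percent of level gave 608 higher and 552 lower genes, so 52.4% of the calls were higher. The excess of higher over lower calls was thus much smaller without genes of low level. The median of 12 lists moved in this setting, with those of complement and border macrophages turning negative, at -0.23 and -0.12. That of cell death genes went from 0.56 to 0.06. Other thresholds, predicted names left out, centring on the median of all genes and other estimates of the ND variance kept the counts within 1.5 times, and no call turned its direction in any setting. The ND variance by sample numbers was chosen after the data were seen. The ratio of deposited means could be formed for 7 named genes and moved none. Leaving out single samples was not possible with tables of group comparisons. No paired analysis was possible because the deposited tables hold no values per sample. Depth cannot be judged, and for genes near 0 in one group the log2 value depends on the authors' model.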
